A study of Arabidopsis thaliana with 6 samples.

Results

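The transcripts described here were moderately lower after 3 h at 4 °C than after 3 h at 20 °C in each of 3 lines of Arabidopsis thaliana seedlings. They were chosen by the cold difference itself, the log2 of intensity plus a pseudocount of 14.1 at 4 °C minus that at 20 °C. A probe set, the group of oligonucleotides that reads a transcript on the array, belongs to the group if this difference was at most -1 in all 3 lines and its mean was above -2. Its mean level over the 6 arrays also had to lie at or above the 40th percentile. Of 22746 probe sets that are not controls, 13648 passed the filter on level, and 62 of these (0.454%) had a difference of at most -1 in all 3 lines. A mean difference above -2 left 46, and 5 with symbols named in the rule were left out, so 41 members remained. A table of the platform pairs 21 of them with a single gene (20 genes, since AT2G37480 has 2 probe sets), 1 with several genes and 19 with none.

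Whole seedlings, 7 days old, were grown on MS medium at 20 °C after 4 days of stratification at 4 °C, and their plates were then held in the light at 20 °C or 4 °C for 3 h. They came from the Col-0 wild type (WT) and from 2 mutants made with EMS in the col-0 background, sfr6, known for sensitivity to freezing, and cls8, known for sensitivity to chilling. RNA from 40 to 60 pooled plants went onto 1 ATH1 array for each line and temperature, so no group had a replicate and the number of arrays limits the precision. In the array titles both cls8 hybridizations carry the word repeat, so a rerun and the cls8 line cannot be told apart. The genes known to be mutated in sfr6 and cls8 had no probe set with a gene name in the table and were not analysed here.

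Plants that are moved to the cold change the levels of many transcripts within hours. Those that decline include genes of growth, metabolism and energy status, and a lower level can come from less synthesis or from faster decay, which an array does not separate. SnRK1 is a protein kinase complex that is active when sugar or energy is short and that has a catalytic subunit and beta and gamma subunits. Breakdown of branched-chain amino acids in mitochondria feeds electrons to respiration and is known to be induced by sugar shortage and darkness. In pooled whole seedlings, fewer cells of a type and less RNA per cell cannot be told apart.

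The trimmed mean intensity was 100 on all 6 arrays, and their medians lay between 41.7 and 45.2. Outlier cells, per the labels, numbered 1101 for sfr6 and 922 for cls8 at 20 °C, against 406 to 517 on the other arrays. Of 21 marker genes of roots, green shoots, guard cells and dividing cells, 9 were measured and 0 passed limma for temperature, with log2 differences from -0.34 for AUR1 of dividing cells to 0.09 for the root gene PYK10. The green shoot gene RCA read 2524.4 to 4093.2 over the arrays and the root gene PYK10 read 2584.8 to 3418.4. By these genes, RNA of both organs was present. The other measured root markers were far dimmer, EXPA7 at 49.4 to 65.8 and EXPA18 at 45.8 to 53.8, so for roots this rests on PYK10.

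On the warm arrays the members ranged from below to well above the median level of all probe sets of the filter. Their median level over the 3 lines, as mean intensity, was 204 at 20 °C and 73.2 at 4 °C, beside 94.6 and 93.1 over all 13648 probe sets of the filter. The level at 20 °C ranged from 61.8 for AT5G05250 to 1454 for AT5G24490. The summed intensity of the 41 members was 15211 at 20 °C and 4666 at 4 °C in WT. The same sums were 11282 and 4252 for sfr6, and 13710 and 5131 for cls8. After 3 h at 4 °C the sum thus stood at 30.7% of its level at 20 °C in WT, 37.7% in sfr6 and 37.4% in cls8. The sum over all probe sets of the filter was not equal between lines either. It stood at 96.5% in WT, 101% in sfr6 and 108% in cls8, and the member sums are not corrected for this. For each of the 41 members, all 3 arrays at 20 °C lay above all 3 arrays at 4 °C, which was so for 18.5% of all probe sets tested. The choice of members made this likely, and nothing is read from it.

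**Figure D1:**
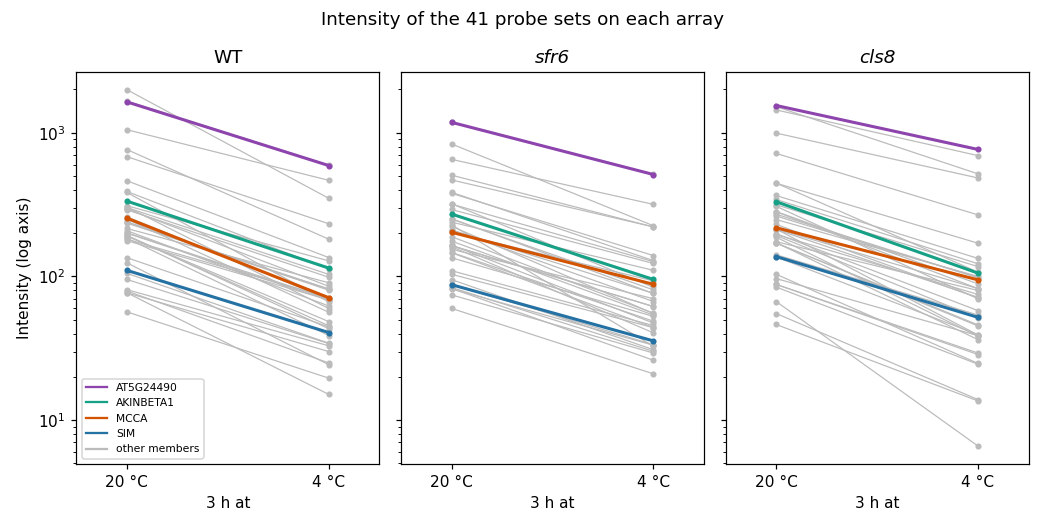
Intensity (log axis) of the 41 probe sets at 20 °C and at 4 °C in WT, sfr6 and cls8, with 1 array for each point and a line joining the arrays of each probe set. Members span more than a decade of level, with AT5G24490 at 1637.7 and SIM at 110.2 in WT at 20 °C, and every line slopes downward, as the rule required.

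Members with a known part in energy signalling and respiration were AKINBETA1 and MCCA, and both also belong to a list of 28 genes of sugar starvation and SnRK1. AKINBETA1 (AT5G21170) encodes a beta subunit of SnRK1. At 20 °C it read 334.2 in WT, 271.6 in sfr6 and 330.9 in cls8, and at 4 °C 114.3, 95.3 and 105.4. The 3 lines were close at each temperature, at a mean of 312 ± 35.2 (SD over the 3 lines, n = 3 arrays) at 20 °C and 105 ± 9.51 at 4 °C. Its cold difference was -1.44 in WT, -1.38 in sfr6 and -1.53 in cls8, among the narrowest ranges of all annotated members. The genes of 2 other beta-type subunits, AT4G16360 and AT2G28060, were named, and neither passed limma for 4 °C against 20 °C, the former at 0.09 (adjusted p = 0.693) and the latter at -0.23 (adjusted p = 0.177) on the log2 scale.

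MCCA (AT1G03090) encodes the biotin-carrying alpha subunit of 3-methylcrotonyl-CoA carboxylase, a mitochondrial enzyme of leucine breakdown. It read 254.4 (WT), 202.9 (sfr6) and 218.2 (cls8) at 20 °C, and 71.1, 88.1 and 94.6 at 4 °C. WT was the highest at 20 °C and the lowest at 4 °C, and its cold difference of -1.66 was larger than that of -1.09 in sfr6 and -1.10 in cls8. The beta subunit of the same enzyme, MCCB, is no member and could be tested. MCCB read 270.9, 415.1 and 348.5 in WT, sfr6 and cls8 at 20 °C, and 177.4, 222.3 and 155.7 at 4 °C. It fell in 3 of 3 lines, at a log2 difference of -0.84 ± 0.11 (SE, limma adjusted p = 0.00142), and the order of the lines differed from that of MCCA, with WT the lowest at 20 °C.

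Other genes of branched-chain amino acid breakdown were looked up after the values of MCCA had been seen. Of 9 listed, 4 were measured beside MCCA, and 3 fell (MCCB, IVD and ETFQO), against 9.25% of all probe sets that passed as lower at 4 °C. MCCB is the gene already given above and also belongs to the sugar starvation list, so this look-up added the falls of IVD and ETFQO. IVD, isovaleryl-CoA dehydrogenase, acts just before the carboxylase in leucine breakdown. It read 149.6 in WT, 127.7 in sfr6 and 132 in cls8 at 20 °C and 64.9, 99 and 77.3 at 4 °C, a log2 difference of -0.68 ± 0.14 (limma adjusted p = 0.01). ETFQO passes electrons from such dehydrogenases to ubiquinone, and it read 94.8, 106.9 and 95 at 20 °C and 73.1, 64.9 and 49.1 at 4 °C. Its log2 difference was -0.57 ± 0.12 (limma adjusted p = 0.0117), a call lost without either sfr6 array (adjusted p = 0.0655 and 0.062). AT2G26800, which encodes hydroxymethylglutaryl-CoA lyase at the end of leucine breakdown, missed the threshold at -0.15 (limma adjusted p = 0.303). The median limma difference of these 4, over the 3 lines together, was -0.63. Over all probe sets tested, the medians of the cold difference within each line were -0.04 in WT, -0.01 in sfr6 and -0.05 in cls8. In the sugar starvation list itself, MCCB fell and BZIP53, a bZIP transcription factor, did not pass at 0.11 (limma adjusted p = 0.509). These were the only measured genes of that list beside the 2 members, and 24 of its 28 genes had no named probe set.

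**Figure D2:**
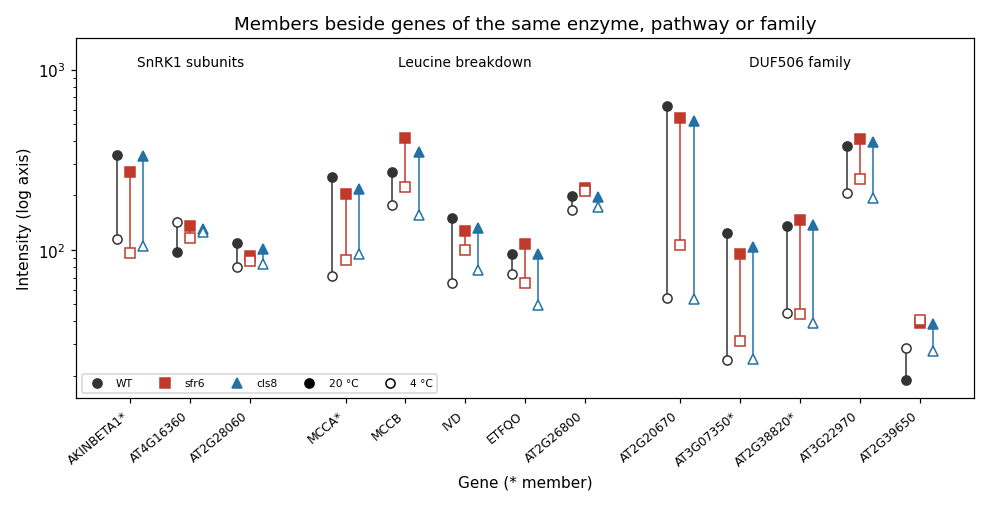
Intensity (log axis) at 20 °C (filled) and 4 °C (open) of members (marked with an asterisk) and of related genes, in WT (circles), sfr6 (squares) and cls8 (triangles), with 1 array for each point. AKINBETA1, MCCA, AT3G07350 and AT2G38820 are members, and MCCB, IVD, ETFQO, AT3G22970 and AT2G20670 are the related genes that passed limma as lower at 4 °C.

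Proteins of the chloroplast were encoded by the brightest annotated members. AT5G24490 is annotated as a protein of the small subunit of plastid ribosomes. It read 1637.7 in WT, 1180.2 in sfr6 and 1545.5 in cls8 at 20 °C, and 590.6, 511.6 and 764.4 at 4 °C. AT5G02160 encodes FIP, a thylakoid protein that interacts with the FtsH protease, and it read 1654.2, 1184.5 and 1440.3 at 20 °C and 594.1, 514.1 and 692.3 at 4 °C. Both were highest in WT at 20 °C, highest in cls8 at 4 °C and lowest in sfr6 at both temperatures. AT4G30690, a plastid translation initiation factor of the IF3 type, was dimmer, at 181.6, 163.3 and 214.5 at 20 °C and 71.2, 61.8 and 82.2 at 4 °C. Its cold difference had the narrowest range of all annotated members, from -1.25 in cls8 to -1.20 in WT.

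The cold difference of AT5G24490 and AT5G02160 was largest in WT (-1.45 and -1.46), smaller in sfr6 (-1.18 for each) and smallest in cls8 (-1.002 and -1.04). The 4 measured markers of green shoots, of 10 listed, were ordered in the same way. RCA, LHCB4.1, LHCB4.2 and PSBW had cold differences of -0.59 to -0.47 in WT, -0.27 to 0.03 in sfr6 and 0.35 to 0.66 in cls8. The root marker PYK10 had the same order, at -0.23, 0.09 and 0.40. The other measured root markers did not, with EXPA7 at -0.11, 0.17 and -0.11 and EXPA18 at 0.07, 0.11 and 0.03. The summed intensity of all probe sets of the filter had the order of the green shoot markers. In the cold it stood at 96.5% of its warm level in WT, 101% in sfr6 and 108% in cls8. The median cold difference of all these probe sets did not follow that order, at -0.04 in WT, -0.01 in sfr6 and -0.05 in cls8. The part of the marker shifts and of these sums in the values of the plastid members was not tested. Other genes of plastid translation were looked up after these values had been seen. The 2 that were measured, FUG1 for the initiation factor IF2 and AT2G24060 for the other IF3 type factor, missed the threshold of limma, FUG1 at -0.12 (adjusted p = 0.539) and AT2G24060 at 0.01 (adjusted p = 0.959) on the log2 scale.

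SIM (AT5G04470), also called SIAMESE, encodes an inhibitor of cyclin-dependent kinases that turns cells such as trichomes from division to endoreplication. It read 110.2 in WT, 87.6 in sfr6 and 137.4 in cls8 at 20 °C, and 40.7, 35.6 and 51.9 at 4 °C. The order of the lines was the same at both temperatures, and the cold difference lay between -1.20 and -1.03. No other gene of this family or of the KRP inhibitors was kept by the filter, but of 12 listed only 1 had a named probe set. For AUR1, an Aurora kinase of dividing cells, the log2 difference was -0.34, which missed the threshold (limma adjusted p = 0.067).

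Enzymes and other proteins of known family followed. AT2G03750 belongs to the cytosolic sulfotransferases and read 290.9 in WT, 318.6 in sfr6 and 307.6 in cls8 at 20 °C, and 98.7, 126.6 and 69.9 at 4 °C. The 3 lines were within a narrow band at 20 °C (306 ± 13.9, SD, n = 3 arrays) and spread at 4 °C (98.4 ± 28.4). AT5G39080, an acyltransferase of the BAHD family, read 208.3, 203 and 192.9 at 20 °C and 62.3, 93.1 and 51.4 at 4 °C, with sfr6 the highest in the cold. The probe set shared by AT4G34930 and AT4G34920, phospholipase C-like phosphodiesterases, read 215.6, 252.6 and 270.8 at 20 °C and 90.3, 76.1 and 98 at 4 °C. It cannot separate these genes.

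AT5G37930 encodes a ubiquitin ligase of the SINA type and was among the dimmest members, at 95.3 in WT, 83.7 in sfr6 and 84.3 in cls8 at 20 °C and 34.1, 30.1 and 24.5 at 4 °C. Of 8 other SINA genes, looked up after these values had been seen, 4 were measured and 1 passed as lower, beside 9.25% of all probe sets. This was AT5G53360, which fell from 61.6, 70.2 and 63.1 to 31.9, 37.5 and 44.3. Its log2 difference was -0.61 ± 0.12 (limma adjusted p = 0.00892), lower in 3 of 3 lines, and this call was lost without either sfr6 array (adjusted p = 0.0576 and 0.0558). AT4G14270 encodes a protein with a PAM2 motif, which binds poly(A)-binding protein. It read 310.1, 320.5 and 343.1 at 20 °C and 128.3, 83.9 and 122.5 at 4 °C, with sfr6 the lowest in the cold. AT3G26580, a protein with tetratricopeptide repeats, read 681.2, 469.1 and 717.4 at 20 °C and 232.5, 221 and 267.8 at 4 °C, so that sfr6 stood below both other lines in the warm more than in the cold.

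The DUF506 family, proteins of little known function, had 2 members. AT3G07350 read 124.3 in WT, 95 in sfr6 and 103.5 in cls8 at 20 °C, and 24.3, 30.9 and 24.8 at 4 °C. AT2G38820 read 135, 146.2 and 136.8 at 20 °C and 44.6, 44.1 and 39.3 at 4 °C, with a mean of 139 ± 6.01 (SD, n = 3 arrays) in the warm and 42.7 ± 2.93 in the cold. Of 8 further DUF506 genes, looked up after these values had been seen, 3 were measured and 2 passed as lower, beside the same 9.25%. AT2G20670, which lies outside the group because its mean difference is below -2, fell from 628.5, 537.3 and 517.3 to 53.8, 106.6 and 53.5, with a log2 difference of -2.80 ± 0.18 (SE, limma adjusted p = 2.35e-05). AT3G22970 fell as well, by a log2 difference of -0.84 ± 0.10 (limma adjusted p = 6.26e-04) in 3 of 3 lines, at 377.3, 414.2 and 395 at 20 °C and 206.6, 247 and 194.4 at 4 °C. AT2G39650 read 19 to 39 at 20 °C and 27.5 to 40.8 at 4 °C and missed the threshold (limma adjusted p = 0.946).

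AT2G37480 was read by 2 probe sets, so it gives a check within the arrays. The first read 199.9 in WT, 176.2 in sfr6 and 187.5 in cls8 at 20 °C and 68.3, 53.8 and 38.4 at 4 °C. The second read 234.8, 211.3 and 229.9 at 20 °C and 81.8, 66.9 and 70.8 at 4 °C. The cold differences were -1.38 in WT from both, -1.49 and -1.48 in sfr6, but -1.94 and -1.52 in cls8. The probe sets were thus close in WT and sfr6 and differed on the cls8 array at 4 °C.

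Further annotated members have no role given here. AT2G24550 had the largest mean difference of the annotated members, -1.74, and read 191.5 in WT, 223.4 in sfr6 and 170.8 in cls8 at 20 °C and 45.4, 55.2 and 45.2 at 4 °C. AT3G06780, a glycine-rich protein, had the widest range of cold differences of the annotated members, -1.85 in WT, -1.16 in sfr6 and -2.10 in cls8, from 193.3, 134.8 and 213.5 at 20 °C to 43.3, 52.7 and 39.1 at 4 °C. The lines thus stood in reverse order at the 2 temperatures. AT3G15630 read 763.1 in WT at 20 °C, well above 378.5 in sfr6 and 445 in cls8, and 181.5, 139.7 and 170.2 at 4 °C. AT5G05250 was the dimmest annotated member, at 56.7, 82.5 and 46.3 at 20 °C and 19.6, 26.1 and 13.6 at 4 °C, with sfr6 the highest at both temperatures. AT2G25200, of the DUF868 family, read 190.8, 164.1 and 170.5 at 20 °C and 48.5, 61.7 and 46 at 4 °C. AT3G49790 read 239.5, 210.1 and 248.7 at 20 °C and 81.5, 76.2 and 100 at 4 °C. Of the 20 member genes, 85% have only a locus code as their symbol, close to the 85.4% of 7259 genes kept by the filter.

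The 19 members without a gene in the table had levels near those of the annotated ones. Their median level was 204 at 20 °C and 73.2 at 4 °C, against 201 and 71.7 for the annotated members. Their level at 20 °C ranged from 67.9 to 1448 and their median cold difference was -1.64 in WT, -1.15 in sfr6 and -1.33 in cls8.

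**Figure D3:**
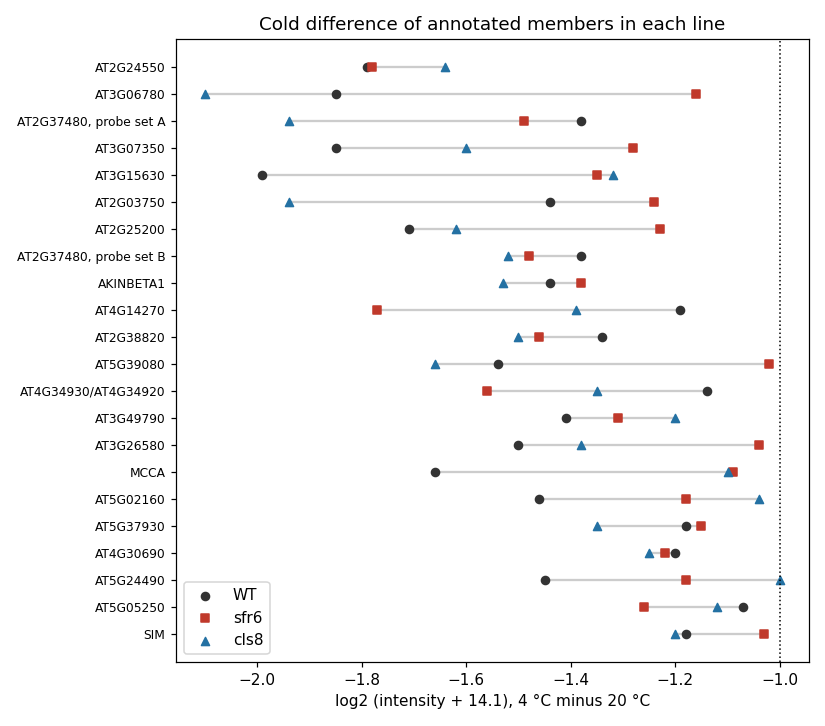
Cold difference (log2 of intensity plus 14.1, 4 °C minus 20 °C) of the members with a gene in each line, ordered by their mean, with WT as circles, sfr6 as squares and cls8 as triangles, 1 pair of arrays for each point. A and B mark the first and second probe set of AT2G37480, the dotted line is the limit of -1 in the rule, and AT3G06780 spans 0.94 where AT4G30690 spans 0.05.

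How the cold difference varied between lines is given as values, because the rule used them and each came from 1 pair of arrays. The median of the 41 members was -1.44 in WT, -1.23 in sfr6 and -1.36 in cls8. It was smaller in size in sfr6 than in WT for 30 of 41 members (73.2%), against 54.8% of all probe sets tested. In cls8 it was smaller than in WT for 22 of 41 (53.7%), against 51.9% of all. The range over the 3 lines was under 0.5 for 25 of 41 members, had a median of 0.41 and reached 0.95. Over all probe sets tested it was under 0.5 for 10170 of 13648 and had a smaller median, 0.34. In the 16 probe sets with a mean difference of at most -2, sfr6 had the smallest difference of the 3 lines in all 16, with a median of -1.95 in sfr6 against -2.62 in WT. In the 77 probe sets that were raised by the mirrored rule, it was smaller in sfr6 than in WT for 41 (53.2%). The limit of -1 in every line narrows what a moderate member can show, so these groups were not tested against each other.

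The levels of each mutant and WT at each temperature are likewise given as values alone. At 20 °C, sfr6 read below WT for 30 of 41 members, with a median difference of -0.17, while 50.3% of all probe sets were below WT. At 4 °C it read below WT for 23 of 41, with a median difference of -0.07, while 46.6% of all were. Members differed in this, and AT5G39080, for example, had a difference between sfr6 and WT of -0.03 at 20 °C and 0.49 at 4 °C. The sfr6 array at 20 °C is the array with the most outlier cells, and the part of this in these values was not tested. A low level against WT in the warm was not particular to sfr6. At 20 °C, cls8 read below WT for 28 of 41 members (68.3%), against 48.7% of all probe sets. At 4 °C, cls8 did so for 22 of 41 (53.7%), against 53.7% of all.

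The difference between lines over both temperatures is another estimate than the cold difference by which members were chosen, and it was tested with limma over all 13648 probe sets. Its error is not independent of the rule, because the residual of this fit is the spread of the cold difference between lines. The rule limits that spread, whose range over the lines reached 0.95 in members and 2.82 over all probe sets, a far larger set. The median range was 0.41 in members and 0.34 over all probe sets. SEs and p-values of members may thus be biased, in a direction that was not tested. Against WT, 2 members passed in sfr6, both lower, while 1.34% of all probe sets passed in either direction and 0.975% as lower. With a list of 41, a count of 2 is too small to set the members apart, and neither has a gene in the table. For sfr6, an unadjusted p under 0.05 in limma was reached by 10 members (24.4%), against 11.5% of all probe sets. Why these shares differ was not tested. At 20 °C, probe set 250649_at read 390 (WT), 147 (sfr6) and 365.6 (cls8), and at 4 °C it read 112.5, 48.8 and 133.4. The log2 difference between sfr6 and WT was -1.17 ± 0.13 (SE, limma adjusted p = 0.00349), lower in 2 of 2 temperature pairs. Probe set 267265_at read 238.6, 109.6 and 263.1 at 20 °C and 80.2, 45.5 and 98.1 at 4 °C, with sfr6 the lowest at each. Its log2 difference was -0.85 ± 0.13 (limma adjusted p = 0.0205), also lower in 2 of 2 pairs. For both, the sfr6 value at 20 °C lay just above the cls8 value at 4 °C, the highest of the cold arrays. The call of 267265_at was lost without the WT array at 20 °C and without either sfr6 array. Without the WT array at 4 °C 4 members passed, without either cls8 array 6, and without the sfr6 array at 4 °C 1.

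Among annotated members, AT3G15630 had the largest difference in sfr6, -0.67 ± 0.17, which missed the threshold (limma adjusted p = 0.118). It passed without the WT array at 4 °C, at -0.99, and without the cls8 arrays, whereas without the WT array at 20 °C the difference was -0.34 (adjusted p = 0.529). The others had log2 differences from -0.34 for AT5G02160 to 0.35 for AT5G05250, and the median of all 41 members was -0.13, beside 0.01 over all probe sets tested. Of the 41 members, 26 had a value below 0 and 15 above, beside 6525 below 0 of all 13648 probe sets tested. AKINBETA1 had a difference of -0.26 ± 0.11 (limma adjusted p = 0.435), MCCA one of -0.02 ± 0.16 (limma adjusted p = 0.982) and SIM one of -0.22 ± 0.13 (limma adjusted p = 0.612).

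In cls8 against WT, 0 of 41 members passed limma, while 0.117% of all probe sets did. An unadjusted p under 0.05 was reached by 3 members (7.32%), near the 6.4% of all probe sets. The log2 differences lay between -0.45 and 0.28, with a median of -0.04, beside -0.01 over all probe sets tested. SIM was the highest, at 0.28 ± 0.13 (limma adjusted p = 0.817), and AT3G15630 was the lowest of the annotated members, at -0.42 ± 0.17 (limma adjusted p = 0.759). Misses of the threshold with 2 arrays for each line do not show that levels were alike.

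**Figure D4:**
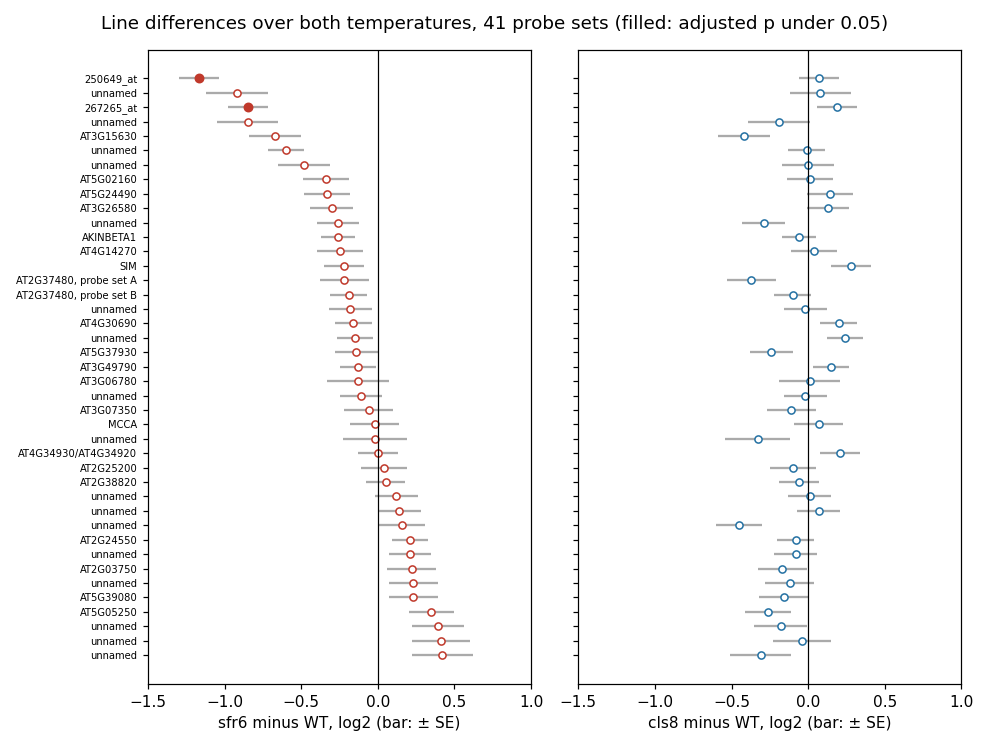
Difference from WT over both temperatures in sfr6 (left) and cls8 (right) for the 41 probe sets, on the log2 scale with bars of ± SE from limma, ordered by the difference in sfr6. Filled points passed an adjusted p of 0.05, which were 250649_at at -1.17 and 267265_at at -0.85 in sfr6 and none in cls8.

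Genes of 9 lists on pathways of growth, hormones, light, water transport, heat and metabolism were set beside the members. Of 182 listed genes, 12 were measured, 2 of them the members AKINBETA1 and MCCA. Of the other 10, 2 fell (MCCB and GID1A) and 4 rose, while 9.25% of all probe sets passed as lower at 4 °C and 9.58% as higher. The gibberellin receptor gene GID1A was at -0.44 (limma adjusted p = 0.0231), and GID1C, of the same family, missed the threshold at -0.10 (limma adjusted p = 0.631). HYH, a bZIP factor of light signalling related to HY5, was the strongest rise, at 1.52 ± 0.12 (limma adjusted p = 1.02e-04), from 42.7, 47.9 and 37.9 in WT, sfr6 and cls8 to 125.2, 201.6 and 128.7. The auxin-responsive genes HAT2 and GH3.3 rose at 0.88 and 0.46 (limma adjusted p = 0.00104 and 0.0215), and DFR of anthocyanin synthesis at 0.63 (limma adjusted p = 0.0155). WES1 of the auxin list and BCAT4 of glucosinolate synthesis did not pass, at -0.19 and 0.16. For BCAT4 the lines differed in direction, with cold differences of 0.63 in WT, -0.48 in sfr6 and 0.32 in cls8. The call of GID1A was lost without either sfr6 array or the cls8 array at 20 °C, that of DFR without either WT array, and that of GH3.3 without any 1 of the WT and sfr6 arrays. No listed gene of aquaporins, heat shock or nitrate assimilation had a named probe set.

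Some probe sets lay close to the limits of the rule. Just inside the limit of -1, the line with the smallest difference was at -1.002 for AT5G24490 and at -1.018 for AT5G39080. Just outside it, that line was at -0.997 for both AT4G27450 and AT5G56100. At the other end, the member with the largest mean difference, a probe set with no gene, had -1.94, and AT2G32150 just outside had -2.03. The dimmest member had a mean log2 level of 5.57, against a limit of 5.43, and AT1G33055, just below that limit with 5.02, had differences of at most -1 in all 3 lines.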

How the data were processed

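The authors deposited linear intensity, 1 column for each of the 6 arrays, and the mean of each column without its lowest and highest 2% is 100. That scaling was found from the values. How the authors summarised the probes is not given in the sources at hand. After 64 controls were set aside, values were transformed as log2 of intensity plus 14.1, the 25th percentile of all values, and filtered at the 40th percentile of the mean level. The platform's table gave 1 gene for 13513 probe sets, several for 503 and none for 8730, and 13436 matched RefSeq genes of TAIR10.1, used for names alone.

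Line and temperature were additive terms in limma 3.58.1 (R 4.3.3) with an intensity trend, with 2 residual degrees of freedom and a prior of 6.82. Tests were two-sided, with p adjusted by Benjamini-Hochberg over 13648 probe sets at a threshold of 0.05. The residual holds array noise and any cold response that differs between lines, and p-values measure only that. Members got no test for temperature. The script was tested on simulated data. Members, lists and tests were chosen with earlier results of these data known, and the family lists (SnRK1, branched-chain amino acid breakdown, CDK inhibitors, DUF506, FtsH, plastid translation, SINA, sulfotransferases, BAHD, PAM2) after the members' values were seen. Of those families, FtsH, sulfotransferases and PAM2 proteins had no other gene kept, and HCT of the BAHD list did not pass for temperature (0.00). No listed FtsH or PAM2 gene had a named probe set, and 1 of 9 listed sulfotransferases had one. The text gives array values for all members with a gene, as the rule for named genes allows, and 2 without. Alternatives covered the pseudocount, filter, quantile normalization, model terms and arrays left out. Promoter motifs were not analysed here.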

Additional observations from a re-analysis of the deposited data

How the results depend on the processing

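The count of 41 members was 69 with no pseudocount (36 of the 41 among them) and 26 with a pseudocount of 43.6, the overall median (19 among them). With the rule on 2 lines it was 80 without both sfr6 arrays and 63 without both cls8 arrays. With quantile normalization, no filter, a filter at the 60th percentile or without both WT arrays it was between 34 and 53. For sfr6, the count of 2 members was 0 with no filter, 0 with no temperature term (where 0 of all probe sets passed), 4 with quantile normalization and 6 without both cls8 arrays, and from 1 to 6 with each array left out. For cls8 it was 0 in every fit run, and 0 to 0 with each array left out. The count of 6 pathway genes for temperature was 3 with no filter, 2 with no line term, and from 4 to 6 with each array left out. Over all probe sets, 183 passed for sfr6, but 18 with no filter, 65 without the sfr6 array at 4 °C and 409 to 411 without cls8 arrays. For cls8, 16 passed, but 4 with no filter, 9 at the 60th percentile, 1 with no temperature term and 27 without its array at 4 °C. For temperature 2570 passed, but 1445 with no filter, 1589 with no line term, and 1528 and 1533 without either sfr6 array. The causes were not tested. None of the 14 single differences refitted (those that passed, and AT3G15630) changed its direction, and the other named differences were not refitted. MCCB, HYH, AT3G22970 and AT2G20670 passed in all 12 fits run for each. AT5G53360 and ETFQO missed the threshold in 3, GID1A in 5, GH3.3 in 6, DFR in 4, and HAT2 and IVD in 1. No paired analysis was possible because each group has 1 array, which leaves no replicate numbers to pair. The fit itself pairs arrays by line and temperature, and the fits with no line or no temperature term are the unpaired ones. The depth of arrays is not a count, and the dimmest members lie nearest to the pseudocount, which understates their change.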
